A study of Mus musculus with 4 samples.

Results

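The 8 genes described here encode steps of the RAF, MEK and ERK kinase cascade and its direct neighbours. They were chosen by name, as the rows of *Rasgrp3*, *Araf*, *Braf*, *Map2k1*, *Map2k2*, *Mapk3*, *Map3k1* and *Dusp6* among the 41214 genes of the count table. RNA-seq had been done on unstimulated B220+ splenocytes of mice with intact MIZ-1 (MIZ-1WT, 2 libraries) and of mice that lack the POZ domain of MIZ-1 in B cells (MIZ-1△POZ, 2 libraries). MIZ-1, encoded by *Zbtb17*, is a zinc finger transcription factor that uses its POZ domain to form multimers on DNA. The MIZ-1△POZ mice carried floxed POZ exons of *Zbtb17* and the Mb1-Cre allele, in which Cre is expressed from *Cd79a*, a gene of the B cell receptor complex. The deletion is therefore restricted to the B lineage, and other cells of the B220+ fraction keep intact MIZ-1. Mice were young adults on a C57BL/6 background, splenocytes were enriched with magnetic beads for B220, and neither pooling of animals nor the Cre status of the MIZ-1WT mice is given in the labels.

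The cascade carries signals from surface receptors to the nucleus. In B cells, ligation of the B cell receptor yields diacylglycerol, which recruits RasGRP exchange factors that load RAS with GTP. RAS-GTP activates RAF kinases, RAF phosphorylates the MEK kinases, and MEK phosphorylates ERK, which acts on transcription factors and other kinases. Dual-specificity phosphatases and Sprouty and Spred proteins dampen the signal. These steps work by phosphorylation, which RNA-seq does not measure, so the values below are transcript levels.

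Each library held between 43026814 and 46387209 counts on genes. Levels are given as CPM, counts divided by the TMM-adjusted size of their library and put on a common scale. The quasi-likelihood test of edgeR was run over the 14554 genes that reached 10 counts in 2 or more libraries, and a gene is said to have risen or fallen where the adjusted p was below 0.05. All log2 fold changes are MIZ-1△POZ over MIZ-1WT. Of all tested genes, 40.0% passed, 21.1% higher and 18.9% lower in MIZ-1△POZ.

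The libraries differed in more than the MIZ-1 allele. The 10 pan-B cell genes summed to between 11477 and 11738 CPM in MIZ-1WT and between 9524 and 9994 CPM in MIZ-1△POZ. *Ptprc*, which encodes B220 among other forms of CD45, was present at 2798 CPM or more in every library. Counts per gene do not separate these forms. By the pan-B cell genes, the B cell label was met in all 4 libraries, but 8 of these 10 genes fell. Their median log2 fold change was -0.25. All 16 macrophage markers rose and none was at 0 in any library, with sums of 980 and 1305 CPM in MIZ-1WT and of 5837 and 3649 CPM in MIZ-1△POZ. All 8 marginal zone B cell markers rose (median 0.71), 4 of 6 tested follicular B cell markers fell (median -0.63) and 4 of 5 plasma cell markers rose (median 0.62). Of the other lists, 2 of 13 T cell, 2 of 6 tested neutrophil and 2 of 6 NK cell markers rose, and 1 of 6 plasmacytoid dendritic cell markers fell. The female-specific *Xist* had 49 and 60 counts in MIZ-1WT against 38145 and 40838 in MIZ-1△POZ. The 4 Y-linked genes summed to 848 and 844 CPM in MIZ-1WT and to 38.1 and 39.3 CPM in MIZ-1△POZ. The source of the Y-linked reads that remained in MIZ-1△POZ was not tested. Sex and genotype thus cannot be told apart. The part of these differences in the values below was not tested. In bulk samples, fewer cells of a type and less RNA per cell cannot be told apart. *Zbtb17* itself had 2087 and 1946 counts in MIZ-1WT and 1774 and 1669 in MIZ-1△POZ (log2 fold change -0.32, edgeR adjusted p = 0.00857).

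Of the 8 cascade genes, 3 passed the test. *Map3k1* and *Braf* fell and *Map2k2* rose, whereas *Rasgrp3*, *Araf*, *Map2k1*, *Mapk3* and *Dusp6* did not pass. The share of 37.5% lay near the 40.0% of all tested genes, and the median log2 fold change of the 8 genes was -0.10, against -0.01 over all tested genes. In 6 of the 8 genes the CPM of the genotypes did not overlap, a condition met by 74.8% of tested genes. The unadjusted edgeR p was below 0.05 in 4 of the 8 genes, and in 7309 of all 14554 tested genes. A log2 fold change of 0.6 or more in size, the limit named in the study's methods, with an edgeR unadjusted p below 0.05 was met by 20.3% of tested genes. The methods print the p limit with the opposite sign. They name Benjamini-Hochberg correction for differential expression but do not say whether this limit was set on adjusted values. The limit on unadjusted p was thus a choice made here. The 8 genes all stayed under that size, with *Map3k1* the farthest from 0 at -0.53 under TMM scaling.

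Because MIZ-1 acts at gene starts, the 250 bases before the annotated start of the 3 genes that passed are shown first. The sequences are RefSeq's for build GRCm38.p6, read 5′ to 3′ on the strand of each gene, and capitals mark matches to the GC box GGGCGG on either strand, the letters bound by SP/KLF factors. The *Map3k1* window is chr13:111808994-111809243 on the minus strand, that of *Braf* is chr6:39725464-39725713 on the minus strand, and that of *Map2k2* is chr10:81105665-81105914 on the plus strand.
Map3k1: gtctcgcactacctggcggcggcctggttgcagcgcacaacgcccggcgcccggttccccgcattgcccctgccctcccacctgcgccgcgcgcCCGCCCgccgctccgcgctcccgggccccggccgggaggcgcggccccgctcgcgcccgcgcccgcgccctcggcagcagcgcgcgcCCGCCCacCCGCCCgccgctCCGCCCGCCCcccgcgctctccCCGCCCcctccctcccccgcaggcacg
Braf: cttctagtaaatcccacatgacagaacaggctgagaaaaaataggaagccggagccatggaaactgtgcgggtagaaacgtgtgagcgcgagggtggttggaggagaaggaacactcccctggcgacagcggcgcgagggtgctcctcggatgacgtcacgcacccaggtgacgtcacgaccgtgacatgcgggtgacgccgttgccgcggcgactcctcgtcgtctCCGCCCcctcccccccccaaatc
Map2k2: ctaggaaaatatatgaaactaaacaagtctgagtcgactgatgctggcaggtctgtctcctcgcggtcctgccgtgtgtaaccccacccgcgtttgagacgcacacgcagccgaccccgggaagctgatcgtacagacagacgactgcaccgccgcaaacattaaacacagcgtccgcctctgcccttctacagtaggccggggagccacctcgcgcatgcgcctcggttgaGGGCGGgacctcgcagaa

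The *Map3k1* window held 6 GC boxes, of which the nearest lay 27 bases before the start, and 85.2% of its bases were G or C. The *Braf* window held 1 GC box 23 bases before the start, and the *Map2k2* window 1 GC box 18 bases before it. Among the genes that did not pass, the *Map2k1* window held 4 GC boxes, and the *Araf*, *Rasgrp3* and *Dusp6* windows held none. A GC box was found in 32.7% of 32851 promoter windows of this length. Windows were found for 7 of the 8 genes, 8 windows in all. None of these held the MIZ-1 core letters ATCGAT, present in 0.728% of all windows, or the related ATCGGT, present in 1.96%, on either strand. The ETS core CCGGAA, the letters bound by the ETS factors that ERK phosphorylates, was found before *Araf*, *Map2k1* and *Rasgrp3* and in 12% of all windows. A match of letters is a description and no measure of binding.

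**Figure D1:**
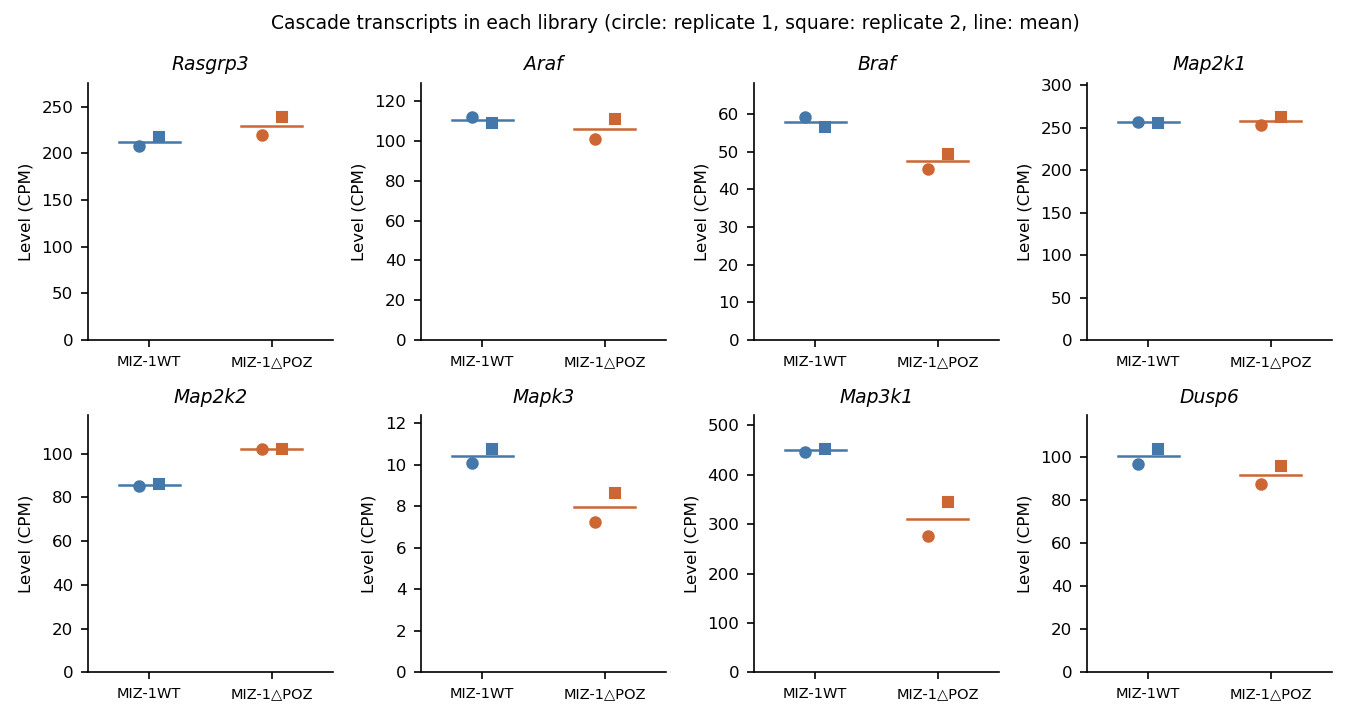
Level of each cascade gene in CPM (vertical axes, from 0) in the 2 MIZ-1WT and 2 MIZ-1△POZ libraries. Circles are replicate 1, squares replicate 2 and lines the mean of each genotype. *Map3k1*, *Braf*, *Mapk3* and *Dusp6* sat lower and *Map2k2* and *Rasgrp3* higher in both MIZ-1△POZ libraries, whereas the points of *Araf* and *Map2k1* overlapped. *Mapk3*, *Dusp6* and *Rasgrp3* did not pass the test.

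At the top of the cascade, *Rasgrp3* encodes a diacylglycerol-dependent exchange factor of RAS and RAP1 that is abundant in B cells (ENSMUSG00000071042, chr17:75435896-75529054, plus strand). *Rasgrp3* stood at 208 and 217 CPM in MIZ-1WT and at 220 and 239 CPM in MIZ-1△POZ. The MIZ-1△POZ values were the higher ones without overlap, but the lower of them was just above the higher MIZ-1WT value. The log2 fold change was 0.11 with a 95% interval from -0.03 to 0.26, and *Rasgrp3* did not pass the test (edgeR adjusted p = 0.170).

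The RAF step was measured through *Araf* and *Braf*. *Araf* (ENSMUSG00000001127, chrX:20797814-20860519, plus strand) encodes the RAF kinase with the weakest basal activity. *Araf* had 112 and 109 CPM in MIZ-1WT and 101 and 111 CPM in MIZ-1△POZ, so the genotypes overlapped. Its log2 fold change was -0.06, with an interval from -0.21 to 0.09 (edgeR adjusted p = 0.466). *Araf* is X-linked, and the genotypes differ in sex as read from *Xist* and the Y-linked genes. Of the 479 tested X-linked genes, 31.5% passed the test. *Araf* exons overlap those of *Syn1* on the opposite strand. *Syn1* had 1 and 4 counts in MIZ-1WT and 13 and 11 in MIZ-1△POZ.

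*Braf* (ENSMUSG00000002413, chr6:39603237-39725463, minus strand) encodes the RAF kinase with the highest activity towards MEK. *Braf* had 2587 and 2373 counts in MIZ-1WT and 2166 and 2163 in MIZ-1△POZ. In CPM, both MIZ-1WT libraries (59.3 and 56.4) lay above both MIZ-1△POZ libraries (45.5 and 49.3). The mean fell by 18.1%, from 57.9 ± 2.01 to 47.4 ± 2.67 CPM (SD, n = 2), with a log2 fold change of -0.29 ± 0.06 (SE) and an edgeR adjusted p of 0.0179. *Braf* exons overlap those of *Ndufb2* on the opposite strand, and the strand setting of the counting is not given in the sources used here. *Ndufb2*, a subunit gene of respiratory complex I, had a log2 fold change of -0.11 (edgeR adjusted p = 0.186).

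The MEK step was measured through *Map2k1* and *Map2k2*, which encode closely related kinases. *Map2k1* (MEK1, ENSMUSG00000004936, chr9:64185770-64253631, minus strand) stood at 257 and 256 CPM in MIZ-1WT and at 254 and 263 CPM in MIZ-1△POZ. The MIZ-1WT values lay between the MIZ-1△POZ values. The log2 fold change of *Map2k1* was 0.01, and its 95% interval ran from -0.10 to 0.12 (edgeR adjusted p = 0.851).

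*Map2k2* (MEK2, ENSMUSG00000035027, chr10:81105915-81133975, plus strand) was the one cascade gene that rose. *Map2k2* had 3723 and 3624 counts in MIZ-1WT against 4868 and 4485 in MIZ-1△POZ. Both MIZ-1WT libraries (85.3 and 86.2 CPM) lay below both MIZ-1△POZ libraries, which each held 102 CPM. The mean was 19.2% higher in MIZ-1△POZ, with a log2 fold change of 0.25 ± 0.04 (SE), an interval from 0.14 to 0.36 and an edgeR adjusted p of 0.00890.

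At the ERK step, *Mapk3* (ERK1, ENSMUSG00000063065, chr7:126759601-126765819, plus strand) was the member with the fewest counts, 440 and 453 in MIZ-1WT and 346 and 379 in MIZ-1△POZ. In CPM, *Mapk3* had 10.1 and 10.8 in MIZ-1WT and 7.27 and 8.63 in MIZ-1△POZ, without overlap. The log2 fold change was -0.39 ± 0.12 (SE) with an interval from -0.70 to -0.08, and the edgeR adjusted p of 0.0522 lay just outside the threshold. *Mapk3* passed under some other settings, such as no filter on counts (edgeR adjusted p = 0.0375), and not by DESeq2's Wald test (adjusted p = 0.0803).

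*Dusp6* encodes the cytoplasmic phosphatase that removes phosphate from ERK and is itself transcribed in response to ERK activity (ENSMUSG00000019960, chr10:99263231-99267489, plus strand). *Dusp6* stood at 96.8 and 104 CPM in MIZ-1WT and at 87.4 and 95.9 CPM in MIZ-1△POZ. Although the genotypes did not overlap, the gap between them was smaller than the gap within either genotype. *Dusp6* did not pass the test, with a log2 fold change of -0.13 and an interval from -0.29 to 0.03 (edgeR adjusted p = 0.166).

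*Map3k1* encodes MEKK1, a MAP3 kinase that feeds mainly the JNK and p38 branches and can also act on the MEK kinases (ENSMUSG00000021754, chr13:111746428-111808993, minus strand). It had the highest CPM of the 8 genes and, under TMM scaling but not under scaling to pan-B cell genes, the log2 fold change farthest from 0. *Map3k1* had 19456 and 19024 counts in MIZ-1WT and 13109 and 15166 in MIZ-1△POZ. In CPM, the MIZ-1WT libraries stood close together at 446 and 453, whereas the MIZ-1△POZ libraries stood lower and apart, at 275 and 345. The mean of *Map3k1* fell by 30.9%, from 449 ± 4.68 to 310.4 ± 49.6 CPM (SD, n = 2), with a log2 fold change of -0.53 ± 0.11 (SE), an interval from -0.79 to -0.27 and an edgeR adjusted p of 0.0126.

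Each of the 3 calls was lost in some fits that left out 1 library. Without MIZ-1WT replicate 1 or 2, *Map3k1* had edgeR adjusted p-values of 0.0670 and 0.0649, *Map2k2* of 0.0876 and 0.0711 and *Braf* of 0.113 and 0.0623. *Braf* was also lost without MIZ-1△POZ replicate 1 (edgeR adjusted p = 0.0560). In the same fits, *Rasgrp3* passed without MIZ-1△POZ replicate 1, at 0.18 (edgeR adjusted p = 0.0347), and *Mapk3* passed without MIZ-1△POZ replicate 2, at -0.50 (edgeR adjusted p = 0.0217). In each such fit 1 library stands alone in its genotype and is assumed to vary like the others. The direction of the 3 called genes was kept, with log2 fold changes from -0.69 to -0.37 for *Map3k1*, from -0.33 to -0.22 for *Braf* and from 0.24 to 0.27 for *Map2k2*.

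Within MIZ-1△POZ, 7 of the 8 cascade genes were lower in replicate 1 than in replicate 2, as were all 10 pan-B cell genes, against 50.5% of tested genes. The summed macrophage markers were 1.60-fold higher in replicate 1. The exception was *Map2k2*, at 102 CPM in both.

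Scaling the libraries to the pan-B cell genes in place of TMM moved the log2 fold changes of all 8 genes upward, and the median of all tested genes to 0.30. *Map2k2* (0.56), *Rasgrp3* (0.41), *Map2k1* (0.31) and *Araf* (0.24) then passed the test as higher and *Map3k1* (-0.24) as lower, with edgeR adjusted p-values of 0.000672, 0.00134, 0.00450, 0.0195 and 0.0444. *Braf*, at 0.01, did not pass in that fit, and *Dusp6* stood at 0.17. Under this scaling 6726 genes of the whole table were called higher and 604 lower, against 3076 and 2746 under TMM. Of the 3 genes called under TMM, *Map3k1* and *Map2k2* kept their direction and their call under both scalings.

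**Figure D2:**
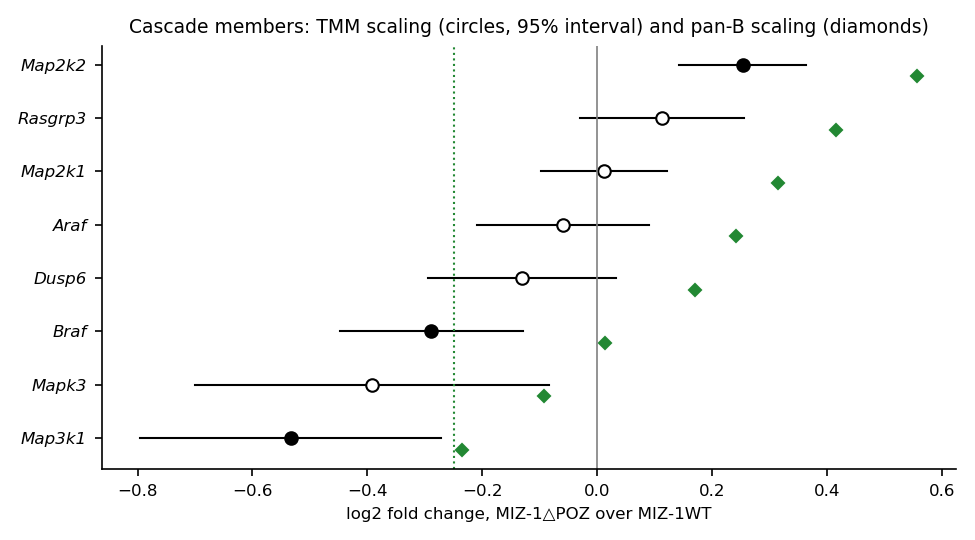
Log2 fold change of each cascade gene, MIZ-1△POZ over MIZ-1WT (horizontal axis). Circles with 95% intervals are the fit with TMM scaling, filled where the edgeR adjusted p was below 0.05, green diamonds are the values under scaling to the pan-B cell genes, and the dotted line marks -0.25, the pan-B cell median under TMM. *Map2k2* stayed right and *Map3k1* left of 0 under both scalings, whereas the *Braf* diamond sat at 0.01.

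Ratios of 2 counts within a library do not depend on scaling. *Map2k1* counts were 3.01 and 2.97 times those of *Map2k2* in MIZ-1WT and 2.48 and 2.58 times in MIZ-1△POZ. The MEK1 to MEK2 transcript ratio was thus lower in both MIZ-1△POZ libraries. *Araf* counts were 1.89 and 1.93 times those of *Braf* in MIZ-1WT and 2.22 and 2.26 times in MIZ-1△POZ. *Map3k1* counts were 1.74 and 1.77 times those of *Map2k1* in MIZ-1WT and 1.09 and 1.31 times in MIZ-1△POZ. *Rasgrp3* counts were 0.466 and 0.479 times those of *Map3k1* in MIZ-1WT and 0.799 and 0.693 times in MIZ-1△POZ. In each of these 4 pairs the genotypes did not overlap. The pairs were picked here, and each holds at least 1 of the 3 genes that passed the test. Among single tested genes, 74.8% did not overlap in CPM, and the share over other gene pairs was not computed. An exact permutation test of 2 against 2 libraries, two-sided, cannot go below p = 0.333, the value obtained for each pair before and after adjustment over the 4 pairs.

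**Figure D3:**
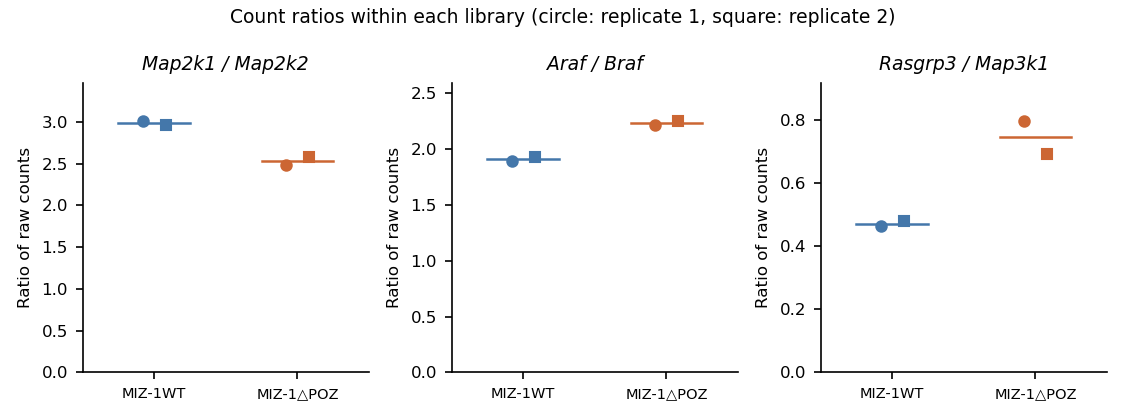
Ratio of raw counts of gene pairs within each library (vertical axes, from 0), with circles for replicate 1, squares for replicate 2 and lines for the mean. The *Map2k1* to *Map2k2* ratio was lower and the *Araf* to *Braf* and *Rasgrp3* to *Map3k1* ratios were higher in both MIZ-1△POZ libraries.

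Levels were compared between genes as CPM per kilobase of merged exons. In MIZ-1WT, *Map2k1* was the most abundant at 75.6, followed by *Map3k1* (60.3), *Rasgrp3* (36.4), *Dusp6* (32.0), *Araf* (16.9), *Map2k2* (15.1), *Mapk3* (4.62) and *Braf* (4.17). *Map2k1* exceeded 95.5% of tested genes on this scale, whereas *Braf* exceeded 45.4%. In MIZ-1△POZ the corresponding means were 76.2, 41.7, 39.3, 29.3, 16.2, 18.0, 3.52 and 3.42. Within MIZ-1WT the 2 libraries of each neighbour in this order stood apart from those of the next. *Araf* (17.2 and 16.6) and *Map2k2* (15.1 and 15.2) were close there and changed places in MIZ-1△POZ, where *Araf* held 15.4 and 17.0 and *Map2k2* 18.1 and 18.0. In MIZ-1△POZ the values of *Map3k1* (37.0 and 46.4) and *Rasgrp3* (37.7 and 41.0) overlapped, as did those of *Mapk3* (3.22 and 3.82) and *Braf* (3.28 and 3.55). With the longest transcript as the length, *Araf* (38.7) moved ahead of *Dusp6* (35.9) and *Braf* (5.95) ahead of *Mapk3* (5.79) in MIZ-1WT. *Map2k2* then stood at 35.7, close to *Dusp6*, against 15.1 with merged exons. The levels and the gaps between genes thus depend on the length chosen.

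The protein-coding genes with the profile over the 4 libraries most like that of *Map3k1* were *Gigyf1*, *Vamp2* and *Dpysl2*, with root mean square differences of centred log2 CPM of 0.0193, 0.0240 and 0.0268. Those most like *Braf* were *Atxn7* (0.00383), *Crkl* (0.00423) and *Ralgapa1* (0.00562). With 4 libraries in 2 groups, many genes can share such a profile.

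The wider pathway was described through lists of named genes. Of 114 tested genes other than the 8, 21 rose and 30 fell, and their median log2 fold change was -0.06. The share that passed was 44.7%, near the 40.0% of all tested genes. The counts depend on the scaling. Under pan-B scaling, 56 of the 114 were called higher and 7 lower, against 6726 and 604 of all 14554 tested genes. All 21 that rose under TMM were also called higher there, whereas 7 of the 30 that fell were still called lower and 7 changed sign. The 7 still called lower included *Rasgrp2*, *Rasa2*, *Mapk11*, *Mapk12*, *Dusp4* and *Ier2*. The counts in each list below are those under TMM, where 40.0% of all tested genes passed.

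**Figure D4:**
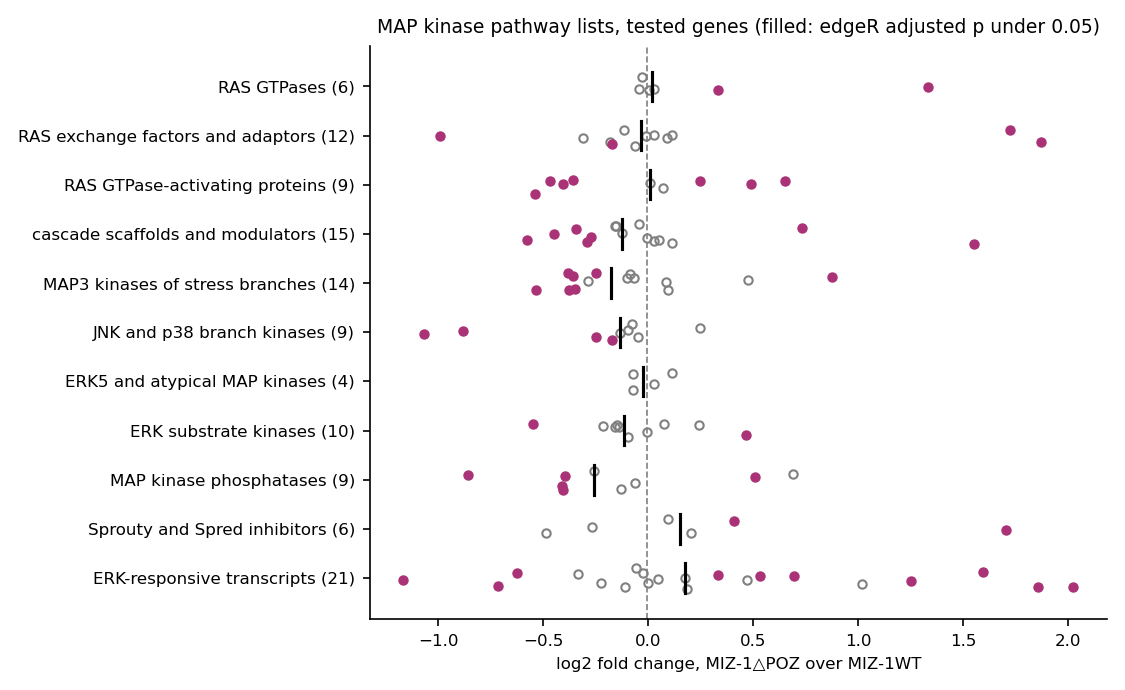
Log2 fold change, MIZ-1△POZ over MIZ-1WT (horizontal axis), of the tested genes of 11 MAP kinase pathway lists, with the number tested in parentheses, cascade genes included where a list holds them. Filled points had an edgeR adjusted p below 0.05, black bars are list medians and the dashed line is the median of all tested genes. Points lay on both sides of 0 in every list, and the ERK-responsive transcripts spread widest, from -1.17 to 2.02.

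Around *Rasgrp3*, the exchange factors and adaptors that load RAS gave 2 higher and 2 lower genes of 12 tested. *Rasgrp2*, a calcium-regulated exchange factor of RAP1, had 402 and 400 CPM in MIZ-1WT and 196 and 207 CPM in MIZ-1△POZ (log2 fold change -0.99, edgeR adjusted p = 0.000739). *Rasgrp1*, the paralog best known from T cells, fell by 0.17 on the log2 scale (edgeR adjusted p = 0.0419) and stood at 0.13 under pan-B scaling. Per kilobase of merged exons, *Rasgrp2* stood at 32.5 and 32.3 CPM in MIZ-1WT, near *Rasgrp3* at 35.6 and 37.1, and at 15.8 and 16.7 in MIZ-1△POZ, where *Rasgrp3* held 37.7 and 41.0. The levels of *Rasgrp2* and *Rasgrp3* per kilobase were thus close in MIZ-1WT and apart in MIZ-1△POZ, and whether their changes differ was not tested. The adaptors *Gab1* (1.87) and *Gab2* (1.72) rose from means of 0.222 and 2.31 CPM in MIZ-1WT.

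**Figure D5:**
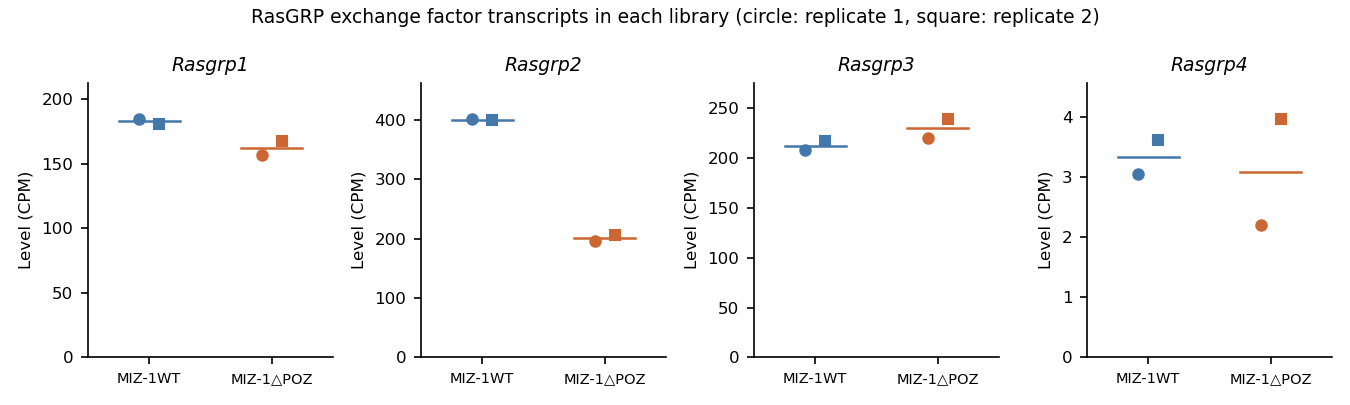
Levels of the RasGRP exchange factor genes in CPM (vertical axes, from 0) in each library, with circles for replicate 1, squares for replicate 2 and lines for the mean. *Rasgrp2* stood near 400.8 CPM in MIZ-1WT and near 201 CPM in MIZ-1△POZ, whereas *Rasgrp3* lay between 208 and 239 CPM in all libraries.

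At RAS itself, 2 of 6 tested GTPase genes rose. *Rras2*, whose product binds the B cell receptor, went from 149 ± 11.1 to 187 ± 0.617 CPM (SD, n = 2), a log2 fold change of 0.33. *Mras* rose by 1.33 from 0.872 CPM. The other 4 had log2 fold changes between -0.04 and 0.03 and did not pass. Among the 9 tested RAS GTPase-activating proteins, which switch RAS off, 4 fell and 3 rose. *Rasa2* (-0.54), *Rasa3* (-0.47) and *Rasal3* (-0.41) fell, and *Rasal2* (0.65), *Dab2ip* (0.49) and *Rasal1* (0.25) rose. *Rasa3* was the most abundant of these, at 502 ± 10.5 CPM in MIZ-1WT and 363 ± 9.37 CPM in MIZ-1△POZ (SD, n = 2).

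Beside *Araf* and *Braf*, the scaffolds and modulators of the RAF to ERK steps gave 2 higher and 5 lower genes of 15 tested. *Ksr1*, a scaffold that holds RAF, MEK and ERK together, rose from 15.0 ± 0.179 to 24.9 ± 3.44 CPM (SD, n = 2), a log2 fold change of 0.73. *Ksr2* rose by 1.55 from 0.422 CPM. *Hsp90ab1*, a chaperone of RAF kinases (-0.58), *Rap1b*, a small GTPase (-0.45), and *Ywhaz*, a 14-3-3 protein that binds RAF (-0.34), fell.

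Beside *Map3k1*, the other MAP3 kinases of the stress branches gave 1 higher and 5 lower genes of 13 tested. *Map3k11* (-0.38) and *Map3k2* (-0.38) fell and *Map3k20* (0.87) rose. Downstream, 4 of 9 tested JNK and p38 branch kinases fell. *Mapk11*, which encodes p38 beta, went from 121 ± 6.34 to 65.7 ± 2.25 CPM (SD, n = 2), a log2 fold change of -0.88. *Mapk12* (p38 gamma, -1.07) and *Map2k7* (MKK7, a JNK kinase, -0.25) also fell, *Map2k7* turning to 0.05 under pan-B scaling. The 4 tested genes of the ERK5 and atypical MAP kinases had log2 fold changes between -0.07 and 0.11.

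Beside *Dusp6*, the other MAP kinase phosphatases gave 4 lower genes and 1 higher of 8 tested. *Dusp4* (-0.86) and *Dusp2* (-0.41), nuclear phosphatases induced by ERK signalling, and *Dusp10* (-0.41), which acts on p38 and JNK, fell, and *Dusp16* (0.51) rose. *Dusp2* stood at 140 and 151 CPM in MIZ-1WT and at 100.4 and 119 CPM in MIZ-1△POZ, and *Dusp4* at 20.9 and 22.1 against 11.1 and 12.6. Of 6 tested Sprouty and Spred genes, *Spred3* (1.71) and *Spred1* (0.41) rose, from means of 0.200 and 18.4 CPM in MIZ-1WT.

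Among the 10 tested kinases that ERK and p38 phosphorylate, *Rps6ka1* (RSK1) rose by 0.46 and *Rps6ka5* (MSK1) fell by 0.55 on the log2 scale. The ERK-responsive transcripts gave 7 higher and 3 lower genes of 21 tested, with a median of 0.17. This list also holds *Srf* and the ETS factor genes *Elk1*, *Elk3*, *Elk4*, *Ets1* and *Ets2*, of which *Elk3* (0.33) rose and the others did not pass. Whether each listed transcript responds to ERK in these cells was not tested. *Fos*, an immediate-early transcription factor, had 260 and 757 counts in MIZ-1WT and 1906 and 2517 in MIZ-1△POZ (log2 fold change 2.02 ± 0.48, SE, edgeR adjusted p = 0.0213). The MIZ-1WT libraries thus differed widely in *Fos* between themselves. *Ier3* (1.85) and *Fosl2* (1.60) rose from means of 0.233 and 1.32 CPM in MIZ-1WT, and *Phlda1* (-1.17), *Egr3* (-0.72) and *Ier2* (-0.63) fell. Under TMM, the ERK-responsive transcripts that passed thus lay on both sides of 0, as did the phosphatases. Under pan-B scaling, 13 ERK-responsive transcripts were called higher and 1, *Ier2*, lower, whereas *Phlda1* and *Egr3* did not pass. Of the phosphatases, *Dusp6* included, 2 were called higher and 1 lower in that fit.

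Several of these genes, among them *Rasgrp2*, *Gab1*, *Ksr1*, *Rasal2*, *Rasal3*, *Dab2ip*, *Map3k11*, *Rps6ka1*, *Spred3* and *Phlda1*, share exon sequence with a gene on the opposite strand, so their counts are uncertain. Whether the macrophage markers, the shift from follicular to marginal zone markers or the sex of the mice account for the values of the pathway genes was not tested.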

How the data were processed

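RNA-seq counts came from B220+ splenocytes, 2 libraries for each genotype as labelled. The authors trimmed paired-end reads of stranded, ribosomal RNA-depleted libraries, mapped them to GRCm38 (mm10) with TopHat2 (version 2.1.0 per the submitters' processing notes), used HTSeq to count reads on Ensembl genes, and deposited the raw counts without normalization or pooling. The strand setting is not given in the sources used here. HTSeq's summary lines were left out; its line for reads outside genes held between 21.1% and 27.2% of each column. Each library held between 43026814 and 46387209 counts on genes.

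Symbols and positions came from GENCODE for GRCm38, which gave a symbol to 40340 of 41214 genes. Genotypes were compared with edgeR 4.0.16 in R 4.3.3 (TMM, quasi-likelihood test, Benjamini-Hochberg adjustment over 14554 genes). The study's methods call the libraries a biological duplicate, and the labels only number them as replicates. The p-values set each difference against the spread between these libraries, which edgeR estimates in part from other genes. The procedure was tested on simulated counts. Alternatives were DESeq2's size factors, DESeq2 1.42.0, no filter, a mean of at least 30 RPM, removal of 250 immunoglobulin segments, scaling to 10 pan-B cell genes, a replicate block, leaving out each library, and the longest transcript as length.

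The 8 genes and all lists were chosen with earlier results of these data known. Named list genes were those called, without overlap between genotypes and with the largest log2 fold changes, up to 3 in each direction per list, besides the members, *Rasgrp1* and genes named for a comparison. A few genes covered by this rule are not reported here.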

Additional observations from a re-analysis of the deposited data

How the results depend on the processing

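The count of called genes, 5822 in all and 3 of the 8 cascade genes, changed by over 1.5 times under few settings. With a mean of at least 30 RPM, 2746 genes and 30 pathway genes were called, since fewer genes were tested, and *Araf* stood at 0.0159; *Mapk3* fell below that filter. Scaling to the pan-B cell genes gave 5 cascade genes and turned *Braf* to 0.0131, *Araf* to 0.24 and *Dusp6* to 0.17; the share of higher calls moved from 52.8% to 91.8%, and the pathway genes from 22 higher and 32 lower to 60 and 8. Leaving out each library gave from 2222 to 5580 genes, from 0 to 4 cascade genes and from 23 to 53 pathway genes (54 with all), and *Araf* ranged from -0.11 to 0.0165. The low counts came without MIZ-1WT replicate 1 (2222, 0 and 23) and without MIZ-1WT replicate 2 (2843, 0 and 33). Same-numbered libraries share only a number, with a correlation of their deviations of -0.07, and a replicate block gave 4732 genes, 3 cascade genes and 51 pathway genes. The number of libraries, 2 a genotype, limits the precision of each value. Why calls moved with single libraries was not tested.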
